A study of Macaca mulatta with 9 samples.

Results

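PSMB8, PSMB9, PSMB10, TAP1, TAP2, TAPBP, NLRC5 and CIITA form the peptide-supply and transcriptional-control arm of antigen presentation. They were taken by name, and all 8 were found among the 767 probes of the table. PSMB8, PSMB9 and PSMB10 are the catalytic subunits that convert the standard proteasome into the immunoproteasome, which interferon-γ induces and which cuts proteins into peptides that fit MHC class I. TAP1 and TAP2 pair to pump those peptides into the endoplasmic reticulum, and TAPBP (tapasin) holds the pump next to empty class I molecules while peptide is loaded. NLRC5 is the transactivator of MHC class I genes and of several genes that feed them, whereas CIITA is the master transactivator of MHC class II genes. In a kidney graft these genes are known to be expressed by infiltrating leukocytes and, under interferon-γ, by endothelium and tubular epithelium.

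The samples were 9 formalin-fixed, paraffin-embedded renal biopsies from pig-to-macaque kidney xenografts, all labelled Macaca mulatta and male, read with the nCounter Human Organ Transplant Panel, in which each probe counts RNA molecules without amplification. Sample titles give 3 groups of 3 libraries: 1KO.1TG early R (the 1KO.1TG samples), 3KO.7TG early bx (the early 3KO.7TG samples), then 3KO.7TG late R (the late 3KO.7TG samples). Kidneys in every group thus came from pigs of a modified line, 1KO.1TG or 3KO.7TG, whose altered genes the labels do not name. R and bx are not spelled out, and no age, day or drug treatment is stated. Whether replicates stem from different animals is unstated, so every p-value reflects the spread between these libraries, which may be technical. The series text speaks of xenografts from pig donors, whereas the extraction text calls the tissue renal allograft; the series text is followed here. Probes were designed on human transcripts, and a count may come from the macaque host, the pig graft or both. Fewer cells of a type and less RNA per cell cannot be told apart in such tissue.

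Library totals ranged from 657340 to 1620150 counts in 8 libraries, while replicate 3 of the 1KO.1TG samples held 21725 and is named the low-yield library. In it the 4 probes for viral genes, a measure of background, reached 13 counts, and 4 of the 8 genes (CIITA, NLRC5, PSMB10 and TAPBP) lay at or below that. In the other 8 libraries all 8 genes lay above the highest viral probe, which gave 7 to 17 counts. Whether 1 was added before the log is unknown, so each printed count may be 1 too high, which weighs most on the low-yield library. Results are therefore given with and without the low-yield library. The kidney marker UMOD gave 815 to 31665 counts in the other 8 libraries and 452 in the low-yield one. The podocyte marker NPHS1 gave 11 to 28 counts in the 8, close to background. Levels below are counts per 1000000 (CPM) of a library size adjusted by a trimmed mean of ratios between libraries, and levels of different probes were not compared with each other.

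**Figure D1:**
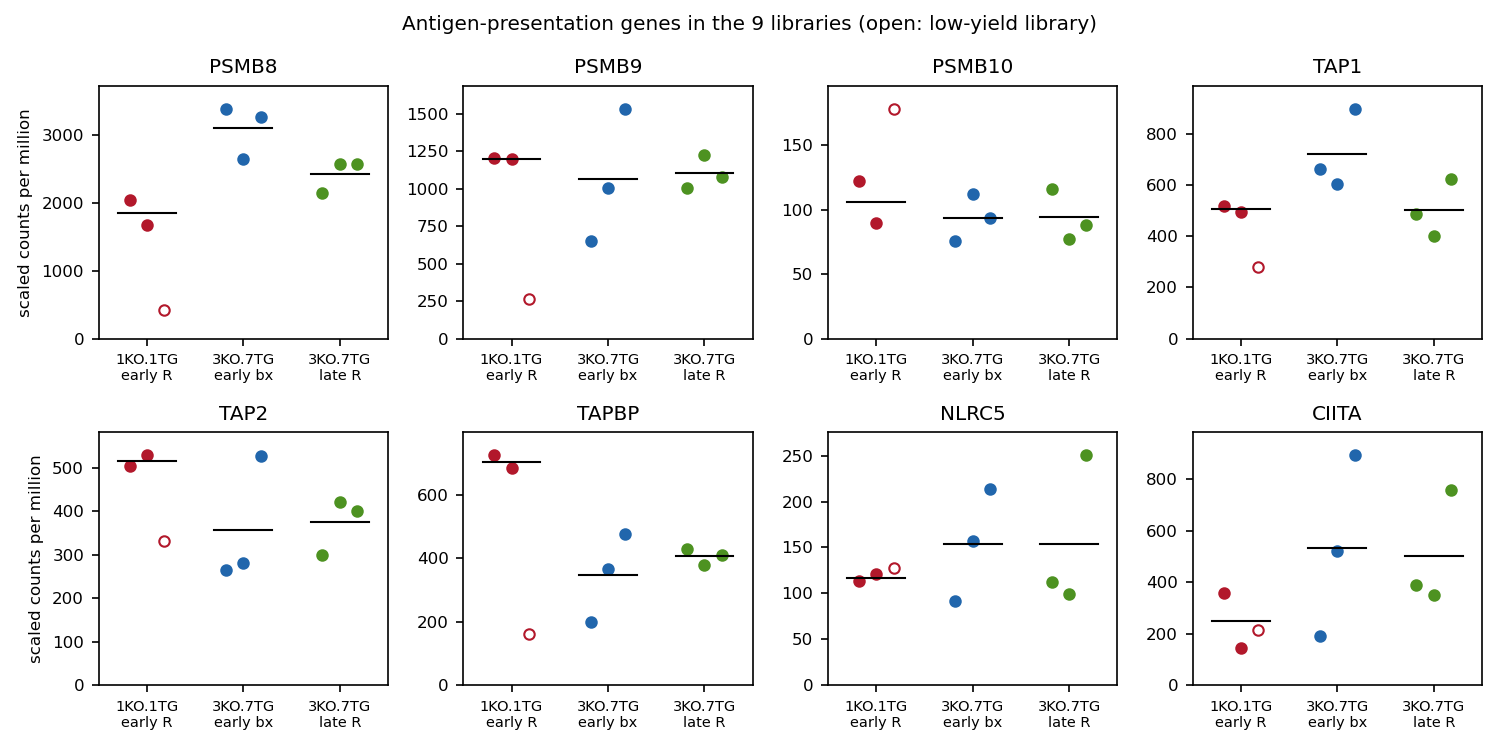
Scaled CPM (vertical axis, linear, from 0) of the 8 genes in each library, by group (horizontal axis). Points are libraries, the open point is the low-yield library, and bars are group means without it. PSMB8 was at 2651 to 3382 in the early 3KO.7TG samples and at 416.1 to 2040 in the 1KO.1TG samples, with no overlap, and CIITA spread widely within every group.

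PSMB8 was the immunoproteasome subunit whose libraries, under the main scaling, kept apart in all 3 comparisons. Its probe gave 2127, 1877 and 24 counts in the 1KO.1TG samples, 2305, 1597 and 3659 in the early 3KO.7TG samples, and 1516, 3898 and 3381 in the late 3KO.7TG samples. Scaled, its level was 3097 ± 391 CPM (SD, n = 3) in the early 3KO.7TG samples, 2428 ± 249 in the late 3KO.7TG samples and 1376 ± 852 in the 1KO.1TG samples, or 1856 ± 260 (n = 2) without the low-yield library. Each library of the early 3KO.7TG samples lay above each of the late 3KO.7TG samples, and those lay above each of the 1KO.1TG samples. None of these steps passed the test given below. Groups also did not overlap for 13.8% (1KO.1TG against early 3KO.7TG), 10.2% (within 3KO.7TG) and 11.1% (1KO.1TG against late 3KO.7TG) of all probes. The step within 3KO.7TG turned sign when unscaled or scaled on probes marked for pig. Both steps to the 1KO.1TG samples did so on pig-marked probes with the low-yield library left out.

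PSMB9, whose gene neighbours TAP1 in the macaque genome, gave 1254, 1345 and 15 counts in the 1KO.1TG samples, 443, 604 and 1722 in the early 3KO.7TG samples, and 714, 1858 and 1421 in the late 3KO.7TG samples. The low-yield library stood at 263.2 CPM against 650.6 to 1533 in the others. The early 3KO.7TG libraries held both the lowest and the highest of those 8 values, and the group means of 1062 ± 444 CPM in the early 3KO.7TG samples, 1105 ± 111 in the late 3KO.7TG samples and 1201 ± 3.22 (n = 2 without the low-yield library) in the 1KO.1TG samples did not differ beyond that spread. PSMB10 gave low counts, 127, 100 and 10 in the 1KO.1TG samples, 51, 67 and 105 in the early 3KO.7TG samples, and 82, 117 and 116 in the late 3KO.7TG samples. It varied least of the 8 genes, by 1.62-fold from the lowest to the highest of the 8 libraries in CPM, and its groups overlapped.

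The 2 chains of the peptide transporter did not follow the same order of groups. TAP1 gave 539, 557 and 16 counts in the 1KO.1TG samples, 453, 365 and 1009 in the early 3KO.7TG samples, and 345, 605 and 819 in the late 3KO.7TG samples. Its scaled level was 723 ± 155 CPM in the early 3KO.7TG samples, above every library of the 1KO.1TG samples (507 ± 14.7 CPM without the low-yield library, n = 2), while the late 3KO.7TG samples, at 503 ± 112 CPM, overlapped with both. TAP2 gave 525, 592 and 19 counts in the 1KO.1TG samples, 179, 168 and 592 in the early 3KO.7TG samples, and 212, 638 and 527 in the late 3KO.7TG samples. Its level was 357 ± 148 CPM in the early 3KO.7TG samples, 374 ± 65.0 in the late 3KO.7TG samples and 516 ± 16.8 (n = 2) in the 1KO.1TG samples. Replicate 3 of the early 3KO.7TG samples, at 527.5 CPM, reached the 1KO.1TG values, so those groups overlapped.

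TAPBP gave 754, 769 and 9 counts in the 1KO.1TG samples, 135, 219 and 533 in the early 3KO.7TG samples, and 304, 572 and 540 in the late 3KO.7TG samples. Its 2 full-depth libraries of the 1KO.1TG samples, at 723.5 and 685.4 CPM, lay above every other library, which ranged from 198.8 to 474.9. The low-yield library, with 9 counts, was at 161.3 CPM and below all of them. Group means followed the order 523 ± 314 CPM in the 1KO.1TG samples (704 ± 27.0 without that library, n = 2), 406 ± 26.3 in the late 3KO.7TG samples and 346 ± 139 in the early 3KO.7TG samples. With all libraries every pair of groups overlapped, and without the low-yield one the last pair did.

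The transactivators spread widely between libraries of each 3KO.7TG group, and all groups overlapped. In the 2 full-depth libraries of the 1KO.1TG samples NLRC5 was at 113.6 and 120.7 CPM, too few to judge its spread in that group. Its 127.4 CPM in the low-yield library rests on 7 counts, below the highest viral probe. NLRC5 gave 118, 135 and 7 counts in the 1KO.1TG samples, 62, 94 and 240 in the early 3KO.7TG samples, and 79, 150 and 329 in the late 3KO.7TG samples, and its groups overlapped at 117 ± 4.99 (n = 2), 154 ± 61.3 and 154 ± 83.7 CPM. CIITA gave 371, 163 and 12 counts in the 1KO.1TG samples, 129, 313 and 1003 in the early 3KO.7TG samples, and 276, 532 and 1000 in the late 3KO.7TG samples. It had the widest range of the 8 genes, 6.13-fold from replicate 2 of the 1KO.1TG samples, at 145.6 CPM, to replicate 3 of the early 3KO.7TG samples, at 893.4 CPM. Among the 519 probes with a mean of at least 50 counts, its SD over the 8 libraries was at percentile 76.7, whereas those of PSMB8, PSMB9, PSMB10 and TAP1 were at percentiles 3.66 to 13.9. NLRC5 and CIITA were both highest in replicate 3 of the early 3KO.7TG samples and replicate 3 of the late 3KO.7TG samples.

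The comparison of the 1KO.1TG samples with the early 3KO.7TG samples set the donor lines side by side at the time labelled early; the line and the change from R to bx cannot be told apart. None of the 8 genes was called by limma at an adjusted p of 0.05, against 0.391% of all 767 probes, and 1 of 8 had an unadjusted p under 0.05, against 13.2% of all probes. PSMB8 was that gene, 3.04-fold lower in the 1KO.1TG samples (log2 fold change −1.60 ± 0.64 SE, limma adjusted p = 0.318). Its fold without the low-yield library was 1.59 (−0.67 ± 0.35, limma adjusted p = 0.343), and its unadjusted limma p went from 0.0274 to 0.0830. CIITA stood at −0.91 ± 0.62 and TAP1 at −0.64 ± 0.46 (limma adjusted p = 0.588 and 0.613), both on the lower side with and without that library. On the higher side, TAPBP was at 0.71 ± 0.55 and TAP2 at 0.51 ± 0.46 (limma adjusted p = 0.664 and 0.725). TAPBP without the low-yield library was 2.26-fold higher (1.17 ± 0.43, limma adjusted p = 0.177), the only 1 of the 8 with an unadjusted p under 0.05 there (0.0219), against 20.1% of all probes. Scaled on the pig-marked reference probes instead, TAP1 was at 0.0081 and, without the low-yield library, PSMB8 at 0.10 and TAP1 at 0.35, while unscaled TAPBP was at −0.51 and TAP2 at −0.52. PSMB9 changed side, from −0.39 ± 0.62 to 0.33 ± 0.43, and NLRC5 and PSMB10 stayed within 0.32 of 0 in both fits.

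The median log2 fold change of the 8 genes was −0.36, against −0.07 over all probes, and −0.01 against −0.00 without the low-yield library. Groups did not overlap for 2 of the 8 genes (PSMB8 and TAP1), against 13.8% of all probes, and for 3 of 8 without the low-yield library (TAPBP being added), against 33.6%. Markers of several cell types were set beside these values, and none of those given here was called by limma in either fit. For monocytes and macrophages, all 7 measured of the 13 listed lay above 0 without the low-yield library, with summed levels of 9576 to 18593 CPM in the 2 libraries of the 1KO.1TG samples and 5335 to 7595 in the early 3KO.7TG samples. With the low-yield library, at 1478 CPM, 4 of the 7 did. The 9 NK and cytotoxic markers summed to 11530 to 15815 CPM in the 2 libraries (2174 in the low-yield one) against 5325 to 8253, with 7 of 9 above 0 without the low-yield library and 4 of 9 with it. The 8 endothelial markers measured of 10 summed to 1232 to 1357 CPM (968.1 in the low-yield one) against 1512 to 2187, with 5 of 8 below 0 without the low-yield library and 4 of 8 with it. The 8 kidney markers measured of 12, summed, were at 868.4 to 9432 CPM in the 2 libraries of the 1KO.1TG samples (10139 in the low-yield one) against 7715 to 50367 in the early 3KO.7TG samples. Of these, 5 of 8 lay below 0 without the low-yield library and 4 of 8 with it. The 4 dendritic cell markers measured of 8 lay below 0 in both fits. Their sums overlapped, at 805.2 to 1219 CPM (679.4 in the low-yield one) against 805.3 to 1808. Of 10 T cell markers 8 lay above 0 without the low-yield library and 7 with it, and of 6 B cell markers 3 did in both fits. The part of these markers in the values of TAPBP and the other genes was not tested.

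**Figure D2:**
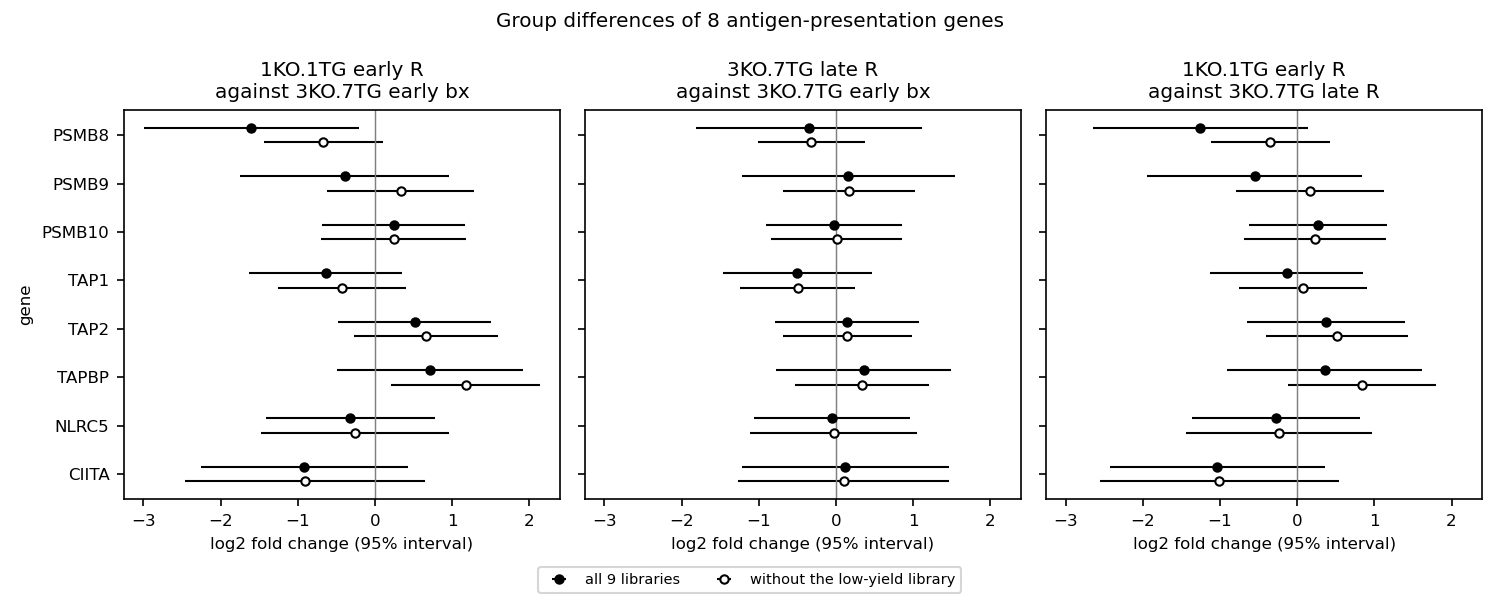
Log2 fold changes (horizontal axis) of the 8 genes (vertical axis) in the 3 comparisons, first group over second, with 95% intervals from limma. Filled points are fits over all 9 libraries and open points are without the low-yield library. PSMB8 moved from −1.60 to −0.67 and TAPBP from 0.71 to 1.17 in the comparison of the early samples, and intervals in the comparison within 3KO.7TG all crossed 0.

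The comparison of the late 3KO.7TG samples with the early 3KO.7TG samples kept the donor line fixed; early against late and bx against R cannot be told apart in it. The low-yield library is in neither group, but it enters through the scaling, the weights and the shared estimate of spread, and PSMB10 went from −0.02 to 0.01 when it was left out. None of the 8 genes was called by limma, as was none of all 767 probes (0%), and 0 of 8 had an unadjusted p under 0.05, against 1.69% of all probes. The log2 fold changes ran from −0.50 ± 0.44 for TAP1 to 0.36 ± 0.52 for TAPBP, with limma adjusted p = 0.990 for all 8, and their median was 0.05 against −0.02 over all probes. PSMB8 was the 1 gene of 8 whose groups did not overlap, against 10.2% of all probes, at −0.35 ± 0.67. This fold change lay above 0 when unscaled or scaled on the pig-marked reference probes. Without the low-yield library PSMB8 was at −0.32 ± 0.31 under the main scaling, with a 95% interval from −1.01 to 0.37. In that fit 0 of 8 genes had an unadjusted limma p under 0.05 against 3.52% of all probes, and 1 of 8 did not overlap against 11%. CIITA was at 0.12 ± 0.62 with an interval from −1.22 to 1.46, so no change within that range could be told from none in these libraries. In both fits the 7 monocyte and macrophage markers lay above 0, and the 9 NK and cytotoxic and 8 kidney markers below 0. Above 0 in both were 5 of 8 endothelial and 1 of 4 dendritic cell markers. For T cells 7 of 10 did (8 without the low-yield library), and for B cells 3 of 6 (4 without it). None of these was called, and their part was not tested.

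The comparison of the 1KO.1TG samples with the late 3KO.7TG samples set the lines side by side among samples labelled R, where the line and the change from early to late cannot be told apart. It shares the 1KO.1TG samples with the first comparison and the late 3KO.7TG samples with the second, so its values are not independent of theirs. None of the 8 genes was called by limma (0.391% of all probes were), and 0 of 8 had an unadjusted p under 0.05, against 6.65% of all probes. Without the low-yield library these were again 0 and 0 of 8, against 0.522% and 8.87%. PSMB8 was 2.38-fold lower in the 1KO.1TG samples (−1.25 ± 0.64, limma adjusted p = 0.765) and 1.27-fold lower without the low-yield library (−0.35 ± 0.35, limma adjusted p = 0.849). CIITA was at −1.04 ± 0.64 and −1.01 ± 0.69 in the 2 fits. TAPBP was at 0.35 ± 0.58, and at 0.84 ± 0.43 without the low-yield library (limma adjusted p = 0.880 and 0.567). PSMB9 changed side again, from −0.55 ± 0.64 to 0.17 ± 0.43. Groups did not overlap for 1 of 8 genes (PSMB8), against 11.1% of all probes, and for 4 of 8 without the low-yield library (PSMB8, PSMB9, TAP2 and TAPBP), against 24.1%. In the late 3KO.7TG samples the summed markers were at 7478 to 14686 CPM for monocytes and macrophages, 4943 to 5572 for NK and cytotoxic cells, 1637 to 2289 for endothelium and 4193 to 13624 for kidney. Against the 2 full-depth 1KO.1TG libraries the NK and cytotoxic sums and the endothelial sums did not overlap, and the monocyte and macrophage sums and the kidney sums did. B cell sums (116.7 to 118.9 CPM against 126.7 to 173.2) and dendritic cell sums (805.2 to 1219 against 1364 to 1946) did not overlap either. In each of these libraries 1 or 2 of the 6 B cell probes lay at or below the highest viral probe. With the low-yield library the NK and cytotoxic sums (2174 CPM there) and the B cell sums (679.4 CPM there, all 6 probes at or below that level) overlapped. T cell sums overlapped (1727 to 2976 against 1897 to 2701). The part of these markers was not tested here either.

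Ratios of 2 probes within a library do not depend on how libraries are scaled, and the ratio of the immunoproteasome subunits PSMB9 and PSMB8 was higher in the 1KO.1TG samples than in both other groups. The count ratio of PSMB9 to PSMB8 was 0.590, 0.717 and 0.625 in the 1KO.1TG samples, 0.192, 0.378 and 0.471 in the early 3KO.7TG samples, and 0.471, 0.477 and 0.420 in the late 3KO.7TG samples. The last of the 1KO.1TG values rests on 15 and 24 counts in the low-yield library. No library of the 1KO.1TG samples overlapped with either other group. The ratio was 1.98-fold that of the early 3KO.7TG samples (log2 difference 0.98) and 1.41-fold that of the late 3KO.7TG samples (0.49), each with an exact two-sided permutation p = 0.1, the smallest that 3 against 3 allows, and adjusted p = 0.24 over 12 ratio tests. Without the low-yield library the log2 differences were 1.00 and 0.51, where 2 against 3 cannot go below an exact permutation p = 0.2. With all 9 libraries, groups also did not overlap for 15.2% of ratios of any 2 probes between the early samples. Between the samples labelled R that share was 11.8%. The pairs for ratios were chosen with earlier results of these data known. No p-value given for the ratios, here or below, accounts for that choice.

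The ratio of the transporter chains TAP2 and TAP1 separated the early samples in the same way. It was 0.974, 1.06 and 1.19 in the 1KO.1TG samples, 0.395, 0.460 and 0.587 in the early 3KO.7TG samples, and 0.614, 1.05 and 0.643 in the late 3KO.7TG samples. The early 3KO.7TG libraries lay below all 6 others. The log2 difference was 1.18 between the early groups (2.26-fold) and 0.66 between the late 3KO.7TG samples and the early 3KO.7TG samples (1.58-fold), each with exact permutation p = 0.1 and adjusted p = 0.24. The 1KO.1TG samples and the late 3KO.7TG samples overlapped (log2 difference 0.52, exact permutation p = 0.2).

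PSMB10 over PSMB8 also separated the early samples. It was 0.0597, 0.0533 and 0.417 in the 1KO.1TG samples, 0.0221, 0.0420 and 0.0287 in the early 3KO.7TG samples, and 0.0541, 0.0300 and 0.0343 in the late 3KO.7TG samples. The value of 0.417 rests on 10 and 24 counts in the low-yield library, where PSMB10 was below the highest viral probe. The log2 difference between the early groups was 1.88 (3.68-fold, exact permutation p = 0.1, adjusted p = 0.24), and 0.92 without that library, still with no overlap (exact permutation p = 0.2). The late 3KO.7TG samples overlapped with both other groups. CIITA over NLRC5 was 3.14, 1.21 and 1.71 in the 1KO.1TG samples against 2.08 to 4.18 in the early 3KO.7TG samples and 3.04 to 3.55 in the late 3KO.7TG samples. Those groups overlapped (exact permutation p = 0.2 for the 1KO.1TG samples against each other group). Over all 28 ratios that the 8 genes form, groups did not overlap for 8 between the early samples, against 15.2% of the 293761 ratios of any 2 probes. There were 4 within 3KO.7TG, against 10.7%, and 9 between the samples labelled R, against 11.8%. When the low-yield library was dropped, the counts were 15 of 28 between the early samples, against 34.9%, and 14 of 28 between the samples labelled R, against 24.8%. Ratios that share a gene are not independent, and 4 of the 8 between the early samples have PSMB8 in them.

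**Figure D3:**
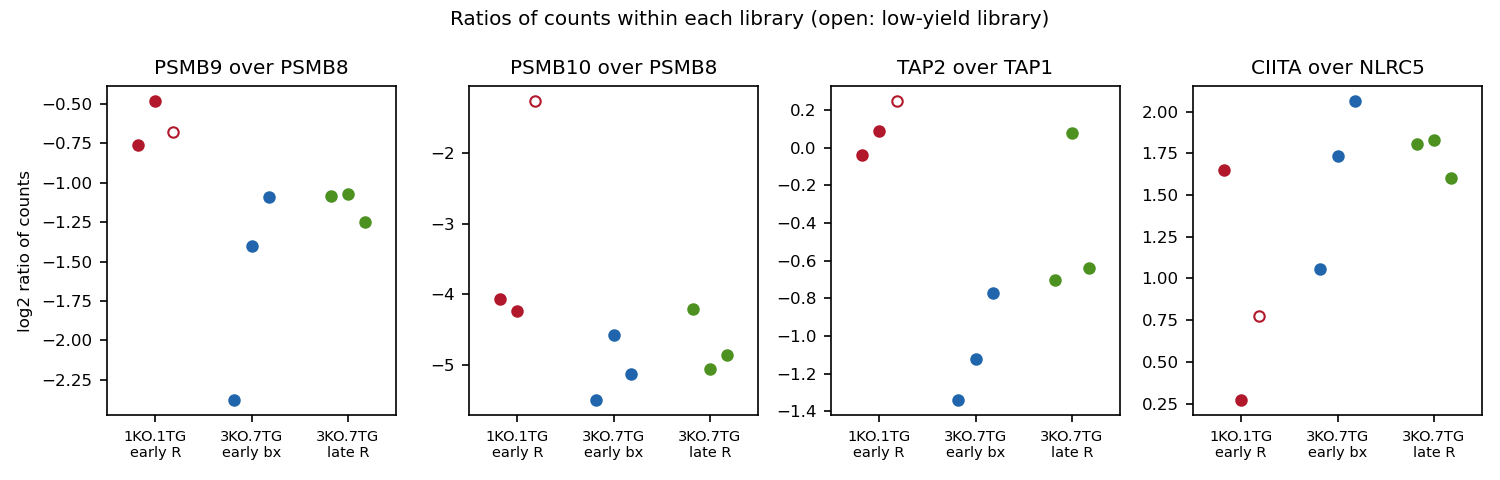
Log2 of the ratio of counts of 2 probes within each library (vertical axis) by group (horizontal axis). Points are libraries and the open point is the low-yield library. For PSMB9 over PSMB8 the 3 libraries of the 1KO.1TG samples lie above all 6 others, and for TAP2 over TAP1 the 3 libraries of the early 3KO.7TG samples lie below all 6 others.

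The balance of macaque-marked to pig-marked probe signal differed between libraries of every group. Of the 8 genes 1 passed a test against it, a share no higher than that of all probes. Whether each marked probe reads only the species it is marked for is not stated, so the balance is not a measured share of host cells. The panel carries probes marked for macaque and for pig for GUSB, SDHA, UBB and STK11IP, and averaging over these 4 genes the log2 of macaque over pig signal gave −2.16, −0.56 and −2.54 in the 1KO.1TG samples, −3.62, −3.11 and −1.34 in the early 3KO.7TG samples, and −2.91, −1.45 and −1.61 in the late 3KO.7TG samples. With the low-yield library set aside (n = 8), TAP2 rose with this ratio (Pearson r = 0.89, exact permutation p = 0.0059, adjusted p = 0.043 over 767 probes; Spearman rho = 0.93, exact permutation p = 0.0022, adjusted p = 0.045). Without the 2 libraries farthest from the median r was 0.83, with group means removed 0.88, and with all 9 libraries 0.90. TAP2 was the 1 gene of 8 that passed, against 17.2% of all probes, and TAP2 and PSMB9 were the 2 of 8 with an unadjusted exact permutation p under 0.05, against 37.9%. PSMB9 did not pass (r = 0.78, exact permutation p = 0.015, adjusted p = 0.065; rho = 0.81, adjusted p = 0.11), nor did TAPBP (r = 0.68, exact permutation p = 0.057, adjusted p = 0.145), whose r was 0.11 without the 2 farthest libraries. The remaining 5 genes had r from −0.44 for PSMB8 to 0.33 for NLRC5. PSMB8 and TAP1, the denominators of the ratios above, were at −0.44 and −0.12.

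Library size ran with the same balance (r = 0.83 between the balance and log2 of the adjusted size, n = 8), and TAP2 had r = 0.78 with size. With size removed r with the balance was 0.71 for TAP2 and 0.59 for PSMB9. The log2 ratios themselves did not pass with the balance. PSMB9 over PSMB8 had r = 0.77 (exact permutation p = 0.016, adjusted p = 0.065 over 4 ratios; rho = 0.69, adjusted p = 0.14), and 0.28 without the 2 farthest libraries. TAP2 over TAP1 had r = 0.77 (exact permutation p = 0.032, adjusted p = 0.065; rho = 0.74, adjusted p = 0.14), and 0.49 without them. The part of this balance in the group differences of either ratio was not tested.

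**Figure D4:**
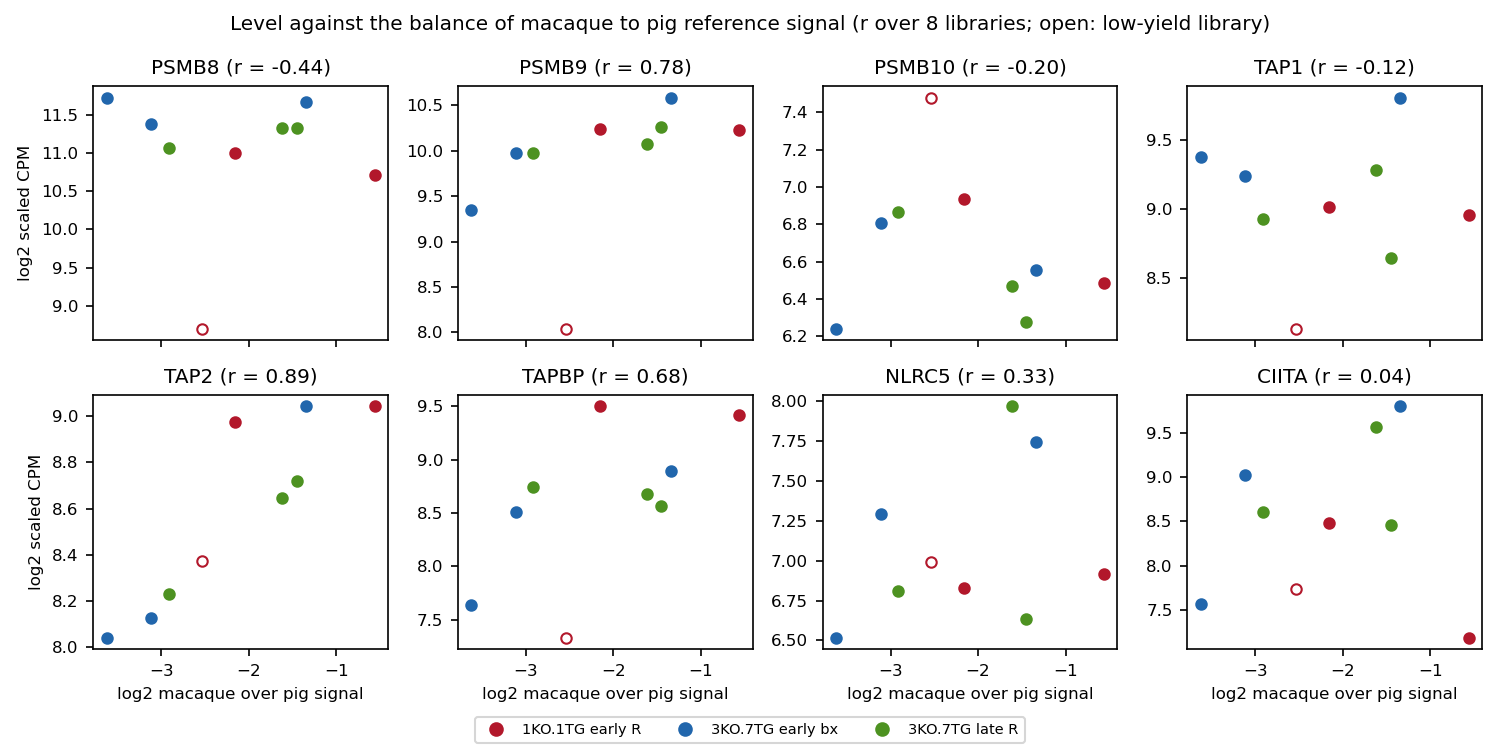
Log2 scaled CPM of each gene (vertical axes) against the averaged log2 of macaque over pig reference signal (horizontal axis), 1 point per library, coloured by group, with the low-yield library open. TAP2 lies higher in libraries with more macaque-marked relative to pig-marked signal (r = 0.89 over 8 libraries), whereas PSMB8 (r = −0.44) and CIITA (r = 0.04) show no such order.

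The 8 genes did not form a single pattern over the 8 libraries. Pearson r of log2 CPM among their 28 pairs had a median of 0.24 and ran from −0.77 for PSMB8 with TAPBP to 0.83 for PSMB9 with TAP2, and 22 pairs lay above 0. Over all pairs of the 519 probes with a mean of at least 50 counts the median was 0.05. PSMB9, TAP2 and TAPBP went together (r = 0.75 to 0.83), as did NLRC5 and CIITA (0.80) and PSMB8 and TAP1 (0.65). PSMB9 and TAP1 adjoin and overlap in the macaque RefSeq annotation (T2T-MMU8v2.0), where PSMB8 and TAP2 follow as the next protein-coding genes, but their probes had r = 0.04. These values describe 8 libraries that share group, depth and scaling, and no test was made of them.

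Among those 519 probes the most alike were named for each gene. CIITA was closest to FGD2 (r = 0.98), IRF8, a transcription factor of macrophages, dendritic cells and B cells (0.96), and INPP5D, a lipid phosphatase of leukocytes (0.95). PSMB8 was closest to TNFSF10, the death ligand TRAIL (0.98), TNFSF8 (0.95) and SOCS1, a feedback inhibitor of interferon signalling (0.95). PSMB9 was closest to PSME1, a subunit of the PA28 proteasome activator (0.94), the interferon-induced GTPase GBP2 (0.94) and CD48 (0.93). TAP2 was closest to HLA-B, a class I heavy chain (0.95), IGF2R (0.93) and CD45RB (0.93). TAPBP was closest to IDO1, a tryptophan-degrading enzyme induced by interferon-γ (0.95), and to the leukocyte integrins ITGAX (0.94) and ITGB2 (0.93). NLRC5 was closest to the costimulator CD80 (0.94), IKBKG (0.94) and the phosphatase PTPN22 (0.92), and TAP1 to CD38 (0.95), the chemokine receptor CXCR3 (0.87) and MTOR (0.82). PSMB10 had no close match, the highest being the chemokine CXCL9 (0.80), IGHA1 (0.79) and SH2D1A (0.75). Several of these values rest on leaving out the low-yield library. With it, r turned to −0.50 for TNFSF8 with PSMB8 and to −0.29 for SH2D1A with PSMB10. It was 0.58 for SOCS1 with PSMB8, 0.60 for PSME1 and 0.34 for GBP2 with PSMB9, 0.35 for CXCL9 with PSMB10 and 0.29 for CXCR3 with TAP1.

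The transactivators were set beside the MHC genes after the likeness values had been seen. CIITA had r above 0 with all 10 measured class II genes, from 0.10 for HLA-DQA1 to 0.92 for HLA-DMB, part of the peptide exchange factor, with a median of 0.68. NLRC5 had r above 0 with 4 of 7 class I genes, from −0.59 for HLA-G to 0.86 for HLA-E, with a median of 0.44, and with all 10 class II genes (median 0.61). This was not particular to the transactivators, since PSMB9 also had r above 0 with all 10 class II genes (median 0.79) and TAP2 with 9 of 10 (median 0.52). NLRC5 had r = 0.46 with PSMB9 and 0.61 with TAP1.

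The rest of the pathway showed few calls. Of the 7 class I genes none was called by limma in any comparison. Between the early samples all 7 lay lower in the 1KO.1TG samples under the main scaling (other scalings were not run for the lists), with a median of −0.87, HLA-F at −0.87 ± 0.38 and B2M, the shared light chain, at −1.87 ± 0.89 (limma adjusted p = 0.350 and 0.399). Those values are from the fit over all 9 libraries. Without the low-yield library the median was −0.50, with 6 of the 7 lower in the 1KO.1TG samples and 1 higher. None of the 10 class II genes measured of 15 listed was called, and their median went from −0.85 to 0.05 when that library was left out. None of the 5 other processing genes measured of 18 listed was called. Between the early samples CTSL, the lysosomal protease cathepsin L, stood at 3.51 ± 0.84 without the low-yield library (limma adjusted p = 0.062). Over all 9 libraries the lowest limma adjusted p among the 5 genes was 0.434. PSME2, a partner of PSME1, stood at −1.25 ± 0.77 over all 9 libraries (limma adjusted p = 0.538). Without the low-yield library all 5 lay above 0 between the early samples, PSME2 among them, against 2 of 5 with it.

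Upstream, IFNG itself gave low counts, 7 to 42 over the libraries. It lay below the highest viral probe in the low-yield library (7 against 13) and in replicate 1 of the early 3KO.7TG samples (11 against 13), and above it elsewhere. Over all 9 libraries, the low-yield one included, IFNG stood at 0.21 ± 0.68 between the early samples (limma adjusted p = 0.989). Its counts were 29 and 29 in the full-depth 1KO.1TG libraries and 11, 22 and 34 in the early 3KO.7TG samples. IRF1, an interferon-induced transcription factor, was at −0.61 ± 0.67 (limma adjusted p = 0.804), or 0.15 ± 0.41 without the low-yield library. SOCS1, one of the 3 probes most like PSMB8, was at −1.73 ± 0.43 (limma adjusted p = 0.170), and its −1.72 ± 0.36 without the low-yield library was the 1 call among the 10 signal genes in either fit (limma adjusted p = 0.047), against 1.83% of all probes. SOCS3 lay the other way, at 2.76 ± 0.72 and 2.91 ± 0.69 (limma adjusted p = 0.170 and 0.062). None of the 11 interferon-γ-induced genes was called. Their median was 0.03, and ICAM1, an adhesion molecule, led at 1.63 ± 0.54 (limma adjusted p = 0.245), or 2.01 ± 0.47 without the low-yield library (limma adjusted p = 0.060). Within 3KO.7TG, none of these 43 listed genes was called, with limma adjusted p from 0.911 up in both fits. Between the samples labelled R none was called either, the lowest limma adjusted p being 0.527.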

How the data were processed

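The deposited table holds nCounter values of 767 probes in 9 samples on a log2 scale, which was read from the values themselves. Any scaling or correction steps of the authors are not given in the sources used here. Per the labels, total RNA was extracted from fixed tissue and passed an absorbance criterion. Taking 2 to the power of each value gave whole numbers for 100% of values (relative tolerance 1e-04), so they were used as counts, and no scaling by the authors is visible. The count values in the report depend on that, and each is 1 too high if 1 was added before the log.

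Counts were fitted with limma 3.58.1 in R 4.3.3: voom (offset 0.5) on totals adjusted by a trimmed mean of log ratios (0.3 trimmed by ratio, 0.05 by level), then lmFit with eBayes on 3 group means over all 9 libraries. Two-sided p-values got a Benjamini-Hochberg adjustment across the 767 probes, with calls at 0.05. SE is the moderated standard error. No probe was filtered out. Other scalings, weights, filters and blocks were tried as alternatives. Fits were tested on simulated data. Exact permutation tests used SciPy 1.17.1 and Python 3.11.15.

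Groups came from sample titles. The 8 genes, the lists, the pairs for ratios and the rule for named genes (all 8; the 3 most alike probes of each; the 2 largest moderated t per list, with IFNG, IRF1, B2M and others) were chosen with earlier results of these data known, and some genes the rule picks are not reported here. Sequences were not used here.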

Additional observations from a re-analysis of the deposited data

How the results depend on the processing

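None of the 8 genes was called under any of 26 alternatives in any comparison (0 of 624 values, lowest limma adjusted p = 0.108), the replicate block included, which called 0 of the 8. Of those 624 fold changes 82 changed sign, all from values that were not called, and no cause was tested. Scaling shifts all probes together: the median of all probes in the 1KO.1TG samples against the early 3KO.7TG samples was −0.07, but −0.74 unscaled, −0.32 on the median, 0.82 on pig and −0.43 on macaque reference probes. For the late 3KO.7TG samples against the early 3KO.7TG samples these were −0.02, 0.54, −0.14, 0.43 and −0.27, and for the 1KO.1TG samples against the late 3KO.7TG samples −0.06, −1.38, −0.18, 0.38 and −0.15.

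In the order of those 3 comparisons, the log2 fold changes that turned sign were as follows. Unscaled, they were −0.48 for PSMB10, −0.52 for TAP2 and −0.51 for TAPBP in the first, 0.19 for PSMB8, 0.54 for PSMB10, 0.012 for TAP1 and 0.49 for NLRC5 in the second, and −1.02 for PSMB10, −1.19 for TAP2 and −1.36 for TAPBP in the third. On pig probes they were 0.26 for PSMB9, 0.0081 for TAP1 and 0.51 for NLRC5, then 0.075 for PSMB8, 0.45 for PSMB10 and 0.39 for NLRC5, then 0.14 for TAP1 and 0.12 for NLRC5. On macaque probes they were −0.18 for PSMB10, then −0.12 for PSMB9, −0.14 for TAP2 and −0.14 for CIITA. PSMB10 in the second was 0.0028 without voom weights, 0.0031 with the replicate block and 0.018 with only the 2 groups compared.

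The alternatives that also left out the low-yield library were added after the data were seen. Unscaled, they gave 0.75 for PSMB9 and 0.17 for NLRC5 in the first, 0.19 for PSMB8, 0.54 for PSMB10, 0.012 for TAP1 and 0.49 for NLRC5 in the second, and 0.072 for PSMB9 in the third. On the median they gave 0.053 for PSMB9 and −0.055 for PSMB10, then −0.0037 for TAP2 and −0.040 for CIITA, then 0.025 for PSMB9. On pig probes they gave 0.10 for PSMB8, 1.11 for PSMB9, 0.35 for TAP1 and 0.53 for NLRC5, then 0.085 for PSMB8, 0.40 for PSMB10 and 0.37 for NLRC5, then 0.018 for PSMB8, 0.53 for PSMB9, 0.43 for TAP1 and 0.16 for NLRC5. On macaque probes they gave −0.30 for PSMB10, then −0.13 for PSMB9, −0.16 for TAP2 and −0.18 for CIITA, then −0.0051 for PSMB10. With the replicate block they gave 0.48 for PSMB9 and 0.13 for NLRC5, then 0.021 for PSMB10, then 0.32 for PSMB9, 0.25 for TAP1 and 0.14 for NLRC5. Without voom weights they gave 0.33 for PSMB9, then 0.030 for PSMB10, then 0.17 for PSMB9 and 0.075 for TAP1.

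Leaving out each library in turn gave, in the first comparison, −0.69 to 0.33 for PSMB9 and −0.59 to 0.049 for NLRC5. In the second it gave −0.14 to 0.12 for PSMB10, −0.13 to 0.46 for PSMB9, −0.0066 to 0.44 for TAP2, −0.49 to 0.58 for CIITA, −0.43 to 0.29 for NLRC5 and −0.15 to 0.35 for the log2 ratio of CIITA to NLRC5. In the third it gave −0.85 to 0.17 for PSMB9, −0.28 to 0.075 for TAP1 and −0.47 to 0.17 for NLRC5. The r with the balance of macaque-marked to pig-marked signal turned to 0.10 for PSMB8 and 0.40 for TAP1 with group means removed. It turned to 0.49 and 0.22 without the 2 farthest libraries, and to 0.023 for TAP1 with all 9 libraries. Over all probes, calls in the first comparison were 3 in the fit as reported and 2 to 26 under the alternatives (14 without the low-yield library or replicate 1 of the 1KO.1TG samples), and in the third 3 against 2 to 10. Whether equal replicate numbers pair the samples could not be told, because the labels name no animals. Deviations of same-numbered samples from their group means had r over 0.1 in 3 of 9 pairs (−0.45 to 0.48). A library correlated best with its own number in 5 of 18 cases. Within 3KO.7TG, early and late samples of the same number had r = 0.28 for replicate 1, −0.34 for replicate 2 and 0.48 for replicate 3. Scaling on plain reference genes was not run, because none of the 12 listed names is in the table. Groups of 3, with 1 library near background, limit what size of change could be detected.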
